A study of Homo sapiens with 11 samples.

Results

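The genes described here are 9 members of the Fanconi anaemia and homologous recombination pathway: FANCA, FANCM, FANCD2, FANCI, BRCA1, PALB2, BRCA2, BRIP1 and XRCC2. They were matched by symbol among 58699 genes in the deposited table, and all 9 were found and tested in every comparison. The cells were HCT116, an established line of human colorectal cancer cells. In the siLuc arm, the control, they received an siRNA to luciferase. In the siStau1 arm they received an siRNA to Staufen1, which binds RNA in double-stranded form. Each arm was treated with the solvent DMSO or with decitabine (DAC) at 500 nM for 5 days, giving 4 groups of 2 total RNA libraries each. Nothing in the labels says whether the 2 libraries of a group came from separate cultures.

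The Fanconi pathway clears crosslinks between the DNA strands and protects stalled replication forks. FANCM brings the core complex, which contains FANCA, to the lesion, the core complex attaches ubiquitin to the pair FANCD2 and FANCI, and the break made when the crosslink is cut out is repaired by homologous recombination. BRCA1, PALB2 and BRCA2 act in that repair, BRIP1 is a helicase that binds BRCA1, and XRCC2 also acts in recombination. Decitabine is built into DNA, where it traps the methyltransferase DNMT1 as a bulky protein adduct, and recombination is among the routes that handle the damage that follows. Many genes of this pathway are transcribed mainly in proliferating cells.

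Levels are given as FPKM, fragments scaled to transcript length and library size, with 1 value per group in the authors' deposited table. No spread between libraries can therefore be given for any level, and the depth is unknown. A gene is called here when its q-value in that table is under 0.05. Log2 ratios were computed from the group values with 0.1 FPKM added to each, and this makes changes at low levels look smaller.

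The 250 bases before the start of 3 members are shown because these genes lie at the ends of the results: BRIP1 had the lowest ratio with DAC in siLuc, BRCA2 the lowest in siStau1, and FANCA was the single member above 0 in both. The sequences are from RefSeq (GRCh38.p14), for BRIP1 at chr17:61863529-61863778 (minus strand), BRCA2 at chr13:32315258-32315507 (plus strand) and FANCA at chr16:89816648-89816897 (minus strand). Capitals mark 3 kinds of letters on either strand: CCAAT, the letters of the CCAAT box; TTTGAA, those of the cell cycle homology region; and, for an E2F site, the string TTCCCGC, the string TTCGCGC, the string TTGCCGC or the string TTGGCGC.
BRIP1: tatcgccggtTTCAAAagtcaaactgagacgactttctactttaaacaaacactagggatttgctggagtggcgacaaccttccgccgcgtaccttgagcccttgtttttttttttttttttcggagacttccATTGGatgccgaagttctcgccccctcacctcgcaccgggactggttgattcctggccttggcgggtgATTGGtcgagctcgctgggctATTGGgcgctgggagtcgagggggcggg
BRCA2: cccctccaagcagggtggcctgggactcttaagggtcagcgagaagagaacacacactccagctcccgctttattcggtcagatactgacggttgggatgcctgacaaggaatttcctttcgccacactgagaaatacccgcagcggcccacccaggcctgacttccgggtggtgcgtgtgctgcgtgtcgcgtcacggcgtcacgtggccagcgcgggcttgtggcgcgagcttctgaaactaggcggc
FANCA: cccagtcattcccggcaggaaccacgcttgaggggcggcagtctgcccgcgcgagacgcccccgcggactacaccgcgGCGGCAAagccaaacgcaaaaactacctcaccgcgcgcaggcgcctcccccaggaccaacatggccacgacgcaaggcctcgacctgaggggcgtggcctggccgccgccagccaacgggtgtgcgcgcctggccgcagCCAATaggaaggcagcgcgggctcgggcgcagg
None of these motifs contains another. The BRIP1 window held CCAAT letters at 3 places and TTTGAA letters at 1, the BRCA2 window held none of the letters, and the FANCA window held 1 of the E2F kind and 1 CCAAT. Of 35116 promoter windows of this length, 32.0% held CCAAT, 13.3% TTTGAA and 10.9% one of the E2F strings. Windows were found for 8 members, with FANCI missing. CCAAT was present in 5 of the 8, TTTGAA in 1 and E2F letters in 2. BRCA1 alone had a second window, giving 9 windows, and was counted if either held the letters. Its CCAAT and E2F letters lay in the window at chr17:43125365-43125614, and the other held none. CpG, the site that DNA methylation uses, occurred 18 times in the BRIP1 window, 20 in BRCA2 and 31 in FANCA, against a median of 11 over all windows. A match of letters is a description and not a binding site, and no methylation was measured here.

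In untreated control cells the 9 genes spanned a wide range of levels. In siLuc DMSO, FANCI was highest at 72.7 FPKM, followed by FANCD2 at 23.4, FANCA at 20.2, BRCA1 at 17.8, BRIP1 at 15.0, PALB2 at 10.2, FANCM at 8.35, XRCC2 at 5.38 and BRCA2 at 4.77. FANCI was above 88.9% and BRCA2 above 24.6% of protein-coding genes with at least 1 FPKM. Whether neighbours in this order differ beyond the spread of libraries cannot be said. In siLuc DAC the order changed: FANCA moved to second place, after FANCI, and BRIP1 dropped below PALB2. FANCI was first and XRCC2 eighth in all 4 groups, and BRCA2 was last in all but siStau1 DMSO, where FANCM was last.

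**Figure D1:**
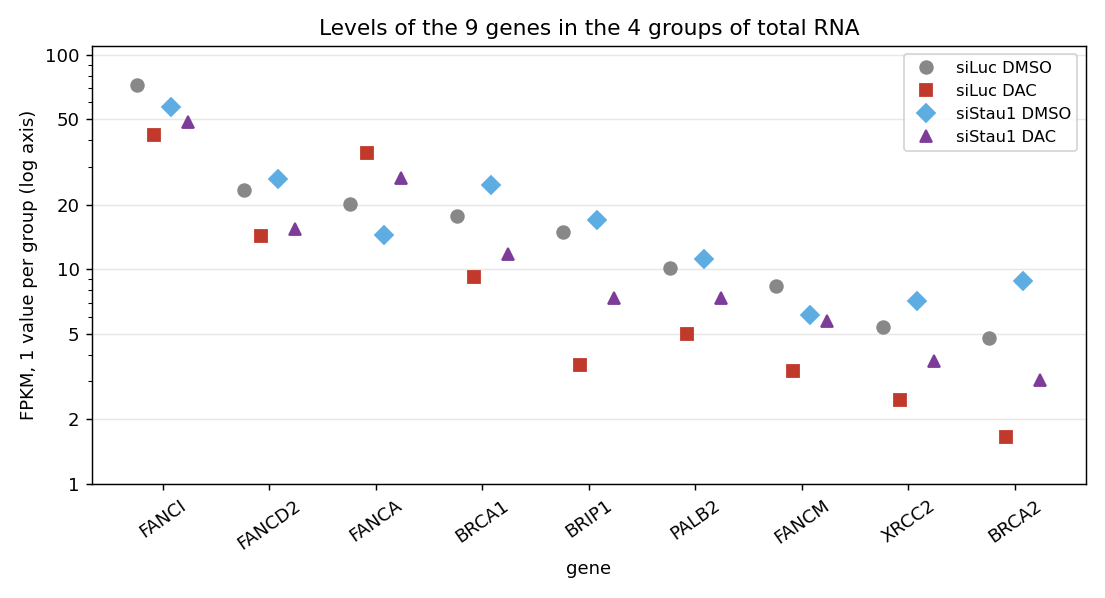
FPKM (vertical log axis) of each of the 9 genes (horizontal axis, in the order of siLuc DMSO), with 1 point per group of 2 libraries and no error bar, because the table holds no value per library. In 8 genes the DAC point lies below the DMSO point of the same arm, in each arm, and in FANCA the DAC points, at 34.8 and 26.5 FPKM, lie above the DMSO points.

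With DAC in control cells, 8 of the 9 genes were lower and FANCA was higher, but only BRIP1 passed the test. Among all genes tested 42.9% were lower. BRIP1 fell from 15.0 to 3.58 FPKM, to 0.239 of its DMSO level, and its q-value was 0.00162 in the authors' deposited table. So 1 of 9 was called, in the lower direction, while 4.78% of the 17504 genes tested were called lower. A log2 ratio of −1 or less was seen in 5 of the 9 and in 16.9% of all genes tested. The 5 were BRIP1, BRCA2, FANCM, XRCC2 and PALB2. When ratios were taken relative to genes of like GC content, 1 of the 9, BRIP1, remained. The share of all genes was not taken for those ratios. The median log2 ratio was −1.02 over the 9 genes and 0.23 over all genes tested. The 9 genes were chosen with earlier results of these data known. Their contrasts with all genes, here and below, are therefore descriptions and not tests. In RNA from whole cultures, fewer cells that express a gene and less of its RNA per cell cannot be told apart.

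Of the genes acting first, FANCA, a subunit of the core complex, had 20.2 FPKM with DMSO and 34.8 with DAC in the siLuc arm, and 14.4 and 26.5 in the siStau1 arm. Both DAC groups were above both DMSO groups, with log2 ratios of 0.78 in siLuc and 0.88 in siStau1 and q-values of 0.347 and 0.324 in the authors' deposited table. FANCA shares 23.6% of its exon bases with ZNF276 on the opposite strand, whose FPKM was 7.98 with DMSO and 17.0 with DAC in siLuc, and 7.75 and 10.1 in siStau1. The labels name stranded kits, whether the counting used strand is not given in the sources used here, and the part of ZNF276 reads in the FANCA values was not tested. FANCM, the translocase that anchors the core complex to DNA, had 8.35 FPKM with DMSO and 3.35 with DAC in siLuc cells, and 6.14 and 5.74 in siStau1 cells. It was low in siLuc DAC alone, while the other 3 groups lay between 5.74 and 8.35. Its log2 ratio with DAC was −1.29 in siLuc and −0.10 in siStau1, with q-values of 0.139 and 0.943 in the authors' deposited table.

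FANCD2 and FANCI form the clamp that is ubiquitinated when the pathway is switched on. FANCD2 had 23.4 FPKM with DMSO and 14.3 with DAC in siLuc cells, and 26.3 and 15.5 in siStau1 cells. Its DAC groups were both below its DMSO groups, by log2 ratios of −0.71 and −0.76, with q-values of 0.210 and 0.217 in the authors' deposited table. FANCI had 72.7 and 42.3 FPKM in siLuc cells and 57.0 and 48.7 in siStau1 cells, with log2 ratios of −0.78 in siLuc and −0.23 in siStau1 and q-values of 0.306 and 0.821 in that deposited table. The ratio of FANCD2 to FANCI within a group does not depend on how groups are scaled: it was 0.322 with DMSO and 0.338 with DAC in siLuc, and 0.461 and 0.317 in siStau1. FANCA over FANCD2, in contrast, went from 0.865 to 2.43 with DAC in siLuc and from 0.548 to 1.71 in siStau1, so FANCA was the lower of the pair with DMSO and the higher with DAC in both arms. The 2 genes differ in GC content, and relative to genes of like GC their log2 ratios with DAC were closer, at 0.23 and −0.27 in siLuc and at 0.44 and −0.45 in siStau1. FANCI shares 5.90% of its exon bases with POLG on the opposite strand, and POLG had 13.5 and 25.7 FPKM with DMSO and DAC in siLuc, and 10.4 and 17.3 in siStau1. The pseudogene FANCD2P2 was listed at 0 in all 4 groups.

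BRCA1, PALB2 and BRCA2 work in this order, BRCA1 promoting end resection, PALB2 joining BRCA1 to BRCA2, and BRCA2 acting on the resected single-stranded DNA. BRCA1 had 17.8 FPKM with DMSO and 9.17 with DAC in siLuc cells, and 24.6 and 11.8 in siStau1 cells. PALB2 had 10.2 and 4.97 FPKM in siLuc cells, and 11.2 and 7.35 in siStau1 cells. For both genes the DAC groups were below the DMSO groups in each arm, with log2 ratios of −0.95 and −1.06 for BRCA1 and −1.02 and −0.60 for PALB2. The q-values in the authors' deposited table were 0.265 and 0.133 for BRCA1 and 0.201 and 0.471 for PALB2.

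BRCA2 had 4.77 FPKM with DMSO and 1.65 with DAC in siLuc cells, and 8.82 and 3.05 in siStau1 cells. It was highest in siStau1 DMSO, and each DAC group stood at nearly the same share of its own DMSO group, 0.345 in siLuc and 0.346 in siStau1. The log2 ratios were −1.48 and −1.50. The authors' deposited table called BRCA2 in siStau1, with a q-value of 0.0488, and not in siLuc, with 0.0558, so nearly equal ratios fell on either side of the threshold. BRCA2 over PALB2 was 0.468 with DMSO and 0.331 with DAC in siLuc, and 0.788 and 0.415 in siStau1.

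BRIP1, the helicase that partners BRCA1, had 15.0 FPKM with DMSO and 3.58 with DAC in siLuc cells, and 17.0 and 7.35 in siStau1 cells. Its DMSO groups were close and its DAC groups were both lower, siLuc DAC most. The log2 ratio was −1.20 in siStau1, where the authors' deposited table gave a q-value of 0.0530, and −2.04 in siLuc. BRIP1 over BRCA1 went from 0.842 to 0.390 with DAC in siLuc and from 0.691 to 0.624 in siStau1. XRCC2, a subunit of a complex that assists recombination, had 5.38 FPKM with DMSO and 2.46 with DAC in siLuc cells, and 7.09 and 3.72 in siStau1 cells. Both DAC groups were below both DMSO groups, with log2 ratios of −1.10 and −0.91 and q-values of 0.140 and 0.208 in the authors' deposited table.

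With DAC in siStau1, 1 of the 9 genes, BRCA2, was called, while 2.89% of 16979 genes tested were called lower. The median log2 ratio was −0.76 over the 9 genes and 0.11 over all genes tested, and 8 of 9 were below 0, against 45.9% of all genes tested. At an unadjusted p under 0.05 in the authors' deposited table there were 7 of 9 genes in siLuc and 5 of 9 in siStau1, beside 28.9% and 19% of all genes tested. The gap between the arms, taken as the siStau1 ratio less the siLuc ratio on the log2 scale, could not be tested with group values and is a description. It was 1.20 for FANCM, 0.84 for BRIP1, 0.55 for FANCI, 0.42 for PALB2, 0.19 for XRCC2, 0.10 for FANCA, −0.02 for BRCA2, −0.05 for FANCD2 and −0.11 for BRCA1. FANCM was above 95.4% and BRIP1 above 90.5% of the 15956 genes tested in both arms, and 6 of the 9 were above 0, against 49.0% of those genes. FANCM differed between the arms at both ends, being lower in siStau1 than in siLuc with DMSO and higher with DAC.

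**Figure D2:**
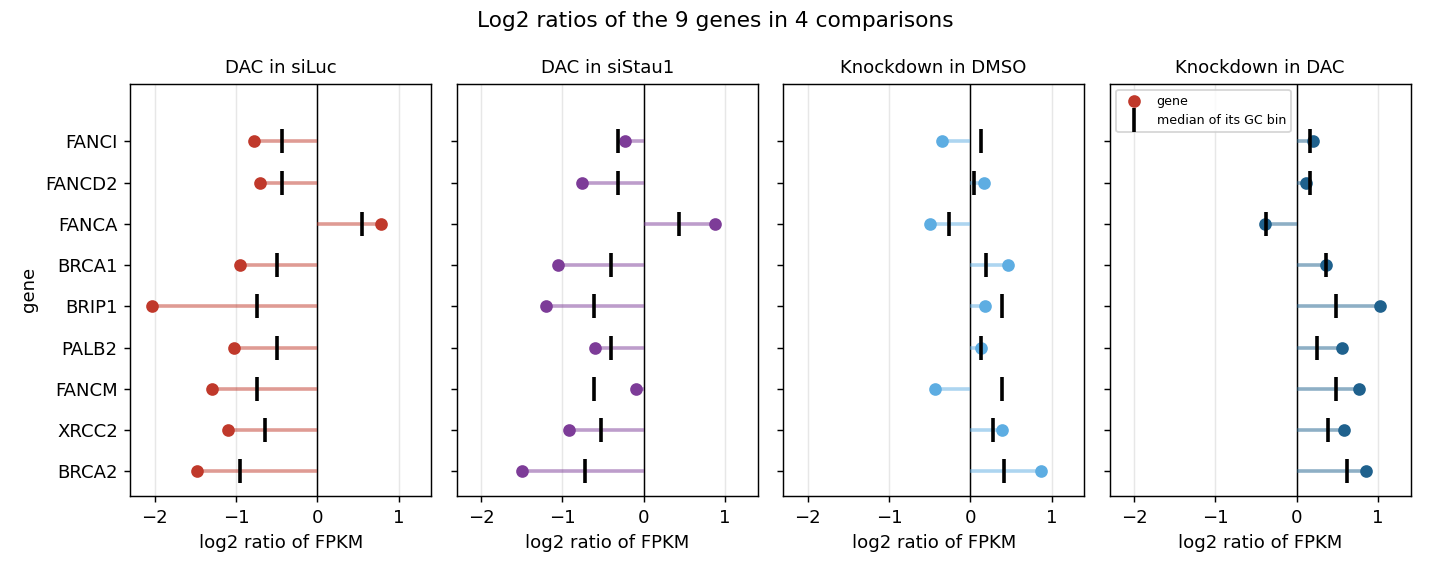
Log2 ratios of FPKM (horizontal axes) for each gene (vertical axis) in 4 comparisons, DAC over DMSO in each siRNA arm and siStau1 over siLuc in each treatment, with black ticks at the median ratio of protein-coding genes of like GC content. In the siLuc panel BRIP1 lies farthest left, at −2.04 against a tick at −0.74, and FANCA is on the right in both DAC panels.

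Between the siRNA arms none of the 9 genes was called, with DMSO or with DAC. The targeted gene, STAU1, had 35.5 and 33.7 FPKM with DMSO and DAC in siLuc cells, and 30.0 and 27.1 in siStau1 cells. The authors' deposited table gave q-values of 0.767 with DMSO and 0.685 with DAC for the 2 arms. The mRNA was thus slightly lower in the groups labelled siStau1 and was not called, and these groups are named here by their siRNA only. Without DAC, Cuffdiff called 0 of 9 genes in the authors' deposited table, with 0 at an unadjusted p under 0.05, beside 0.799% called and 4.3% at that p among 15893 genes tested. The ratios ran from −0.49 in FANCA to 0.87 in BRCA2. With DAC, Cuffdiff again called 0 of 9, and BRIP1 alone had an unadjusted p under 0.05, beside 0.904% called and 6.95% at that p among 17263 genes tested. There the ratios ran from −0.39 in FANCA to 1.02 in BRIP1, 8 of 9 were above 0, where 58.1% of all genes tested were below 0, and the median was 0.56, while that of all genes tested was −0.14. The comparisons share groups, so their values are not independent of each other.

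For both changes at once, siStau1 DAC over siLuc DMSO, Cuffdiff called 0 of 9 genes in the authors' deposited table, beside 4.98% of 16909 tested. At an unadjusted p under 0.05 there was 1 gene, BRIP1, beside 13.6% of all. Ratios ran from −1.02 in BRIP1 to 0.39 in FANCA. The groups siLuc DAC and siStau1 DMSO differ in siRNA and drug. In siLuc DAC over siStau1 DMSO the authors' deposited table called 4 of 9 genes, all lower, with q-values of 0.00162 for BRIP1, 0.00293 for BRCA2, 0.0248 for XRCC2 and 0.0460 for BRCA1, beside 7.31% of 17632 genes called lower. BRCA2 was at 0.187 and BRIP1 at 0.210 of the siStau1 DMSO level there. This comparison was added after the others had been seen.

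Fold changes in these libraries moved with the GC content of transcripts, which bears on the 9 genes directly. The other 8 genes have longest transcripts that are low in GC, from 36.3% in BRCA2 to 44.0% in FANCD2, while FANCA has 55.4%. The median of 10953 protein-coding genes with at least 1 FPKM in both siLuc groups was 48.1%. Split into 20 bins by GC content, these genes had a median DAC ratio in siLuc of −0.95 (log2) in the bin poorest in GC and 1.20 in the richest. Relative to the median of their own bin, the siLuc ratios were −1.29 for BRIP1, −0.55 for FANCM, −0.53 for BRCA2, −0.52 for PALB2, −0.45 for XRCC2 and BRCA1, −0.34 for FANCI, −0.27 for FANCD2 and 0.23 for FANCA. The directions were thus kept in siLuc, at smaller sizes. In their own bins, 5.29% of genes lay below BRIP1, from 22.6% to 33.6% below the other 7 genes that were lower, and 62.9% below FANCA.

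In siStau1 the same centring gave −0.78 for BRCA2, −0.65 for BRCA1, −0.58 for BRIP1, −0.45 for FANCD2, −0.39 for XRCC2, −0.19 for PALB2 and 0.44 for FANCA, and it turned FANCI to 0.09 and FANCM to 0.52. For siStau1 over siLuc with DAC the median over the 9 genes went from 0.56 to 0.19. BRIP1 kept 0.53 there, and FANCA, BRCA1, FANCD2 and FANCI came within 0.05 of the median of their bins. FANCG, another core complex subunit, is also GC-rich at 58.1%, and FANCA over FANCG went from 0.698 to 0.942 with DAC in siLuc and from 0.725 to 1.18 in siStau1. Beside this partner the FANCA ratio was again higher with DAC in each arm, by less than beside FANCD2. FANCE, FAAP20 and FAAP100 are further GC-rich core complex subunits, and FANCG had the lowest DAC ratios of these. The log2 ratios in siLuc and siStau1 were 0.35 and 0.18 for FANCG, and 0.66 and 0.24 for FANCE. They were 1.89 and 0.81 for FAAP20 and 1.54 and 1.06 for FAAP100, beside 0.78 and 0.88 for FANCA. The FANCA ratio was thus below that of FAAP100 in both arms, and below that of FAAP20 in siLuc. None of these ratios was called except that of FAAP100 in siLuc. Relative to genes of like GC, FANCA was at 0.23 in siLuc and 0.44 in siStau1. FAAP100 was then at 0.34 and 0.20, FAAP20 at 0.96 and 0.15, and FANCG and FANCE were negative in both arms. After centring, FANCA was thus above FAAP100 in siStau1 and below it in siLuc.

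**Figure D3:**
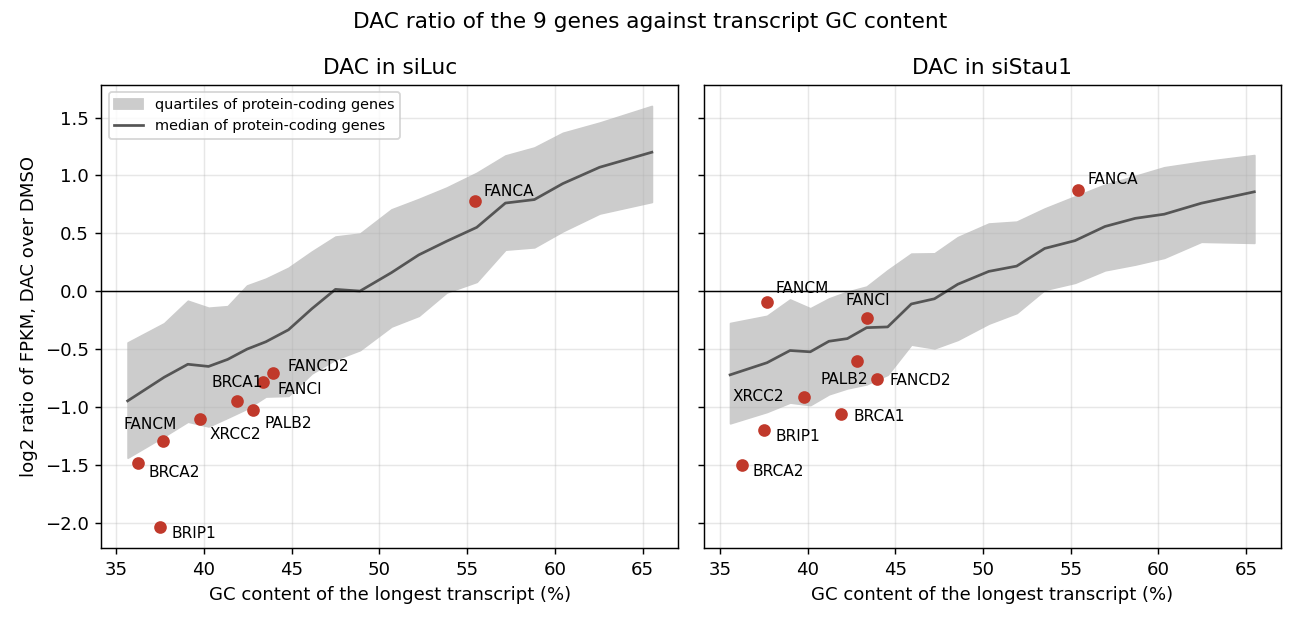
DAC log2 ratio (vertical axis) against GC content of the longest transcript in percent (horizontal axis) for siLuc and siStau1, with the 9 genes as points over the median (line) and quartiles (band) of protein-coding genes in 20 GC bins. In siLuc 8 points lie left of 45% and below the line, with BRIP1 farthest under the band, and FANCA lies at 55.4% above the line; in siStau1 FANCM and FANCA lie above the band and BRCA1, BRCA2 and BRIP1 below it.

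A list of 67 other Fanconi and homologous recombination genes was examined beside them, of which 66 were tested and SLX1A, near 0 FPKM in every group, was not. With DAC in siLuc 8 of the 66 were called in the authors' deposited table, 7 lower and 1 higher. The 7 are 10.6% of the list, beside 4.78% of all genes, while 8.71% of all genes were called higher. The median log2 ratio was −0.36, and 66.7% were below 0, against 42.9% of all genes tested. Centred within GC bins the median was −0.17, nearer to that of genes of like GC than the −0.45 of the 9 genes. Those that fell include UBE2T, which attaches ubiquitin to FANCD2 together with the ligase FANCL, from 78.3 to 25.3 FPKM, and USP1, which removes it, from 31.9 to 15.7. FANCL had 27.1 and 17.0 FPKM, and its q-value was 0.660 in the authors' deposited table. Other recombination factors fell too: RAD51AP1, which aids strand invasion, from 24.6 to 3.86 FPKM, SFR1 from 17.8 to 5.29, and RBBP8, the end resection factor also known as CtIP, from 36.1 to 10.4.

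RPA3, a subunit of the single-strand binding complex RPA, fell from 147 to 39.3 FPKM, and CENPS, a histone-fold partner of FANCM, from 22.0 to 5.87. FAAP100, a core complex subunit, rose from 6.42 to 18.9 FPKM, and its longest transcript has 65.8% GC. After centring within GC bins these ratios ran from −2.20 for CENPS to −0.43 for USP1 among the 7, and FAAP100 was at 0.34. In siStau1 3 of 66 were called with DAC, all lower, which is 4.55% of the list beside 2.89% of all genes: RAD51AP1, from 36.7 to 8.86 FPKM, RBBP8, from 96.0 to 24.6, and UBE2T, from 106 to 39.4. For siStau1 over siLuc Cuffdiff called 0 of 66 with DMSO, beside 0.799% of all genes, with 2 at an unadjusted p under 0.05, beside 4.3%. With DAC it called 1 of 66, beside 0.904% of all genes. This was RBBP8, which rose from 10.4 to 24.6 FPKM and whose q-value was 0.0338 in the authors' deposited table.

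Genes of other repair routes and of the cell cycle gave the setting for these changes. With DAC in siLuc the authors' deposited table called 8 of 20 mitosis genes lower and 1 higher, 3 of 22 S phase genes lower and 1 higher, 3 of 21 base excision repair genes lower and 1 higher, 2 of 18 nucleotide excision repair genes lower, 1 of 7 mismatch repair genes lower and 0 of 16 end joining genes, 5 of which had an unadjusted p under 0.05. Among all genes 4.78% were called lower and 8.71% higher, and 28.9% had an unadjusted p under 0.05. At that p there were 12 of 20 mitosis, 7 of 22 S phase and 7 of 21 base excision repair genes. There were 6 of 18 nucleotide excision repair and 2 of 7 mismatch repair genes. The median log2 ratios in this order were −0.90, −0.40, −0.34, −0.24, −0.67 and −0.26. Centred within GC bins they were −0.46, −0.45, −0.52, −0.32, −0.39 and 0.050, so the end joining median changed sign. Before centring, the mitosis median was the nearest to that of the 9 Fanconi and recombination genes, which was −1.02. After centring the 9 genes were at −0.45, and mitosis was not set apart. The S phase, base excision repair and mismatch repair medians then lay near that value too. In the mitosis list HMMR, TTK and CENPF were lowest before centring, at −3.12, −2.33 and −1.70. After centring they were at −2.17, −1.68 and −1.11. Of the 20 mitosis genes 4 were above 0 before centring. These were CDC20 at 0.89, which was called, PLK1 at 0.63, MKI67 at 0.27 and AURKB at 0.26. In S phase, RRM1 was at −1.98, PCNA at −1.36 and CDT1 at 1.26, or 0.062 for CDT1 relative to genes of like GC. Whether a change in cycling cells has a part in the levels of the 9 genes was not tested.

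**Figure D4:**
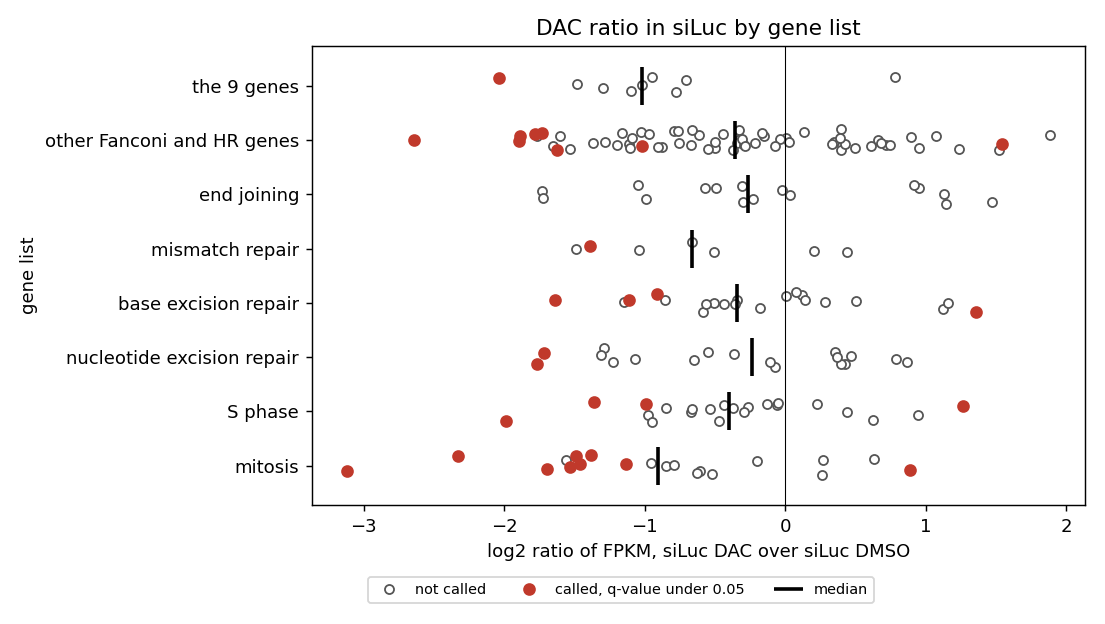
Log2 ratio of FPKM, siLuc DAC over siLuc DMSO (horizontal axis), for every tested gene of 8 lists (vertical axis, with vertical jitter), with filled points for genes called at a q-value under 0.05 in the authors' deposited table and a bar at each median. The 9 genes have a median of −1.02 and 1 filled point, and the mitosis list a median of −0.90 and 9 filled points.

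The mean profile of the 9 genes over the 4 groups, on log2(FPKM + 0.1) values centred per gene, was 0.34 with DMSO and −0.62 with DAC in siLuc, and 0.44 and −0.17 in siStau1. PALB2 lay nearest to it, at a Euclidean distance of 0.0822, and FANCA farthest, at 1.77. Among 10503 other protein-coding genes with at least 1 FPKM in every group, the nearest were MRPL44, COIL, MRS2, RPS13 and FARSB, at distances from 0.0300 to 0.0408, and 465 lay within 0.25. These distances rest on 4 values per gene, which share the scaling and GC trend of the groups.

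The label of the cells was checked with markers. Of 8 genes of colon epithelium 6 had at least 1 FPKM in each DMSO group and 7 in each DAC group. VIL1 was under 1 FPKM in all groups, and LGALS4 was listed at 0 in siLuc DMSO. Of 13 markers of immune, stromal, endothelial, erythroid and liver cells, between 0 and 2 reached 1 FPKM in a group, and their summed level was 2.40 FPKM with DMSO and 14.5 with DAC in siLuc, and 1.54 and 11.1 in siStau1. With DAC 5 of these 13 were tested in each arm, and the authors' deposited table called 1 higher in siLuc and 3 in siStau1. Among all genes tested 8.71% were called higher in siLuc, and this share was not taken for siStau1. In siLuc the called gene was PECAM1, from 0 to 0.633 FPKM. In siStau1 PTPRC was called, from 0 to 0.820 FPKM, VWF, from 0.0604 to 0.767, and COL1A1, from 0.826 to 5.65, so most were near 0. The 8 colon genes summed to 2601 and 8199 FPKM in siLuc and to 2149 and 5938 in siStau1. KRT8, KRT18 and KRT19 made up most of each sum, and each was higher with DAC in both arms. The colon genes did not all rise. In siLuc 2 of the 7 tested were called higher and 1 lower, EPCAM, from 259 to 117 FPKM. EPCAM was also lower with DAC in siStau1, at 338 and 179 FPKM, but was not called there, while 2 others were called higher. CDX2 was nearly level in siLuc, at 7.31 and 7.11 FPKM, and went from 2.76 to 7.47 in siStau1. The sums of both marker lists were thus higher with DAC in each arm, and their part in the levels of the 9 genes was not tested.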

How the data were processed

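Total RNA was sequenced in 8 of the 11 libraries, 2 per group. The authors deposited 1 FPKM value per gene and group, with p-values and q-values for the 6 pairwise comparisons, in the layout of Cuffdiff per the file headers. Per the submitters' processing notes the build was hg38 and the tools were HISAT2 2.1.0, featureCounts, DESeq 1.36.0, Cuffdiff 2.2.1 and Cuffnorm 2.2.1, with no roles given. The deposited log2 fold changes were not used in the text, because they are infinite or very large where a group is near 0. A Benjamini-Hochberg adjustment of the deposited p-values, run jointly on 102180 tests from the 6 comparisons, matched the deposited q-value to within 5.27e-07, and the smallest deposited p-value is 5e-05. For 1 gene, not in any list, group values differed between comparisons. The 3 tables of J2 libraries hold repeat elements and were not used here.

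Log2 ratios were computed from FPKM with a pseudocount of 0.1 (Python 3.11.15, pandas 2.3.3, numpy 2.4.6). All 58699 gene identifiers are in GENCODE release 29, which gave positions, exon overlaps, and the GC percentage of the longest transcript per gene. GC centring subtracted the median ratio of protein-coding genes of like GC (FPKM of 1 or more in each group of the pair), in 20 bins, and was checked on simulated data. No test across libraries was fitted, because values per library were not in the table. The named genes were all 9 members, up to 8 called companion genes, up to 3 called genes of each other list by size of the DAC ratio in siLuc, STAU1, and the 5 genes nearest in profile. RAD51AP1, RBBP8 and UBE2T recur in other comparisons. Some others, among them FANCG, FANCE, FAAP20 and FANCL, were named outside this rule. Lists and members were chosen with earlier results of these data known. Other pseudocounts, scalings, centrings and q-value limits were tried.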

Additional observations from a re-analysis of the deposited data

How the results depend on the processing

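No paired analysis was possible because the deposited table holds 1 value per group, and no fit without a single replicate could be made for the same reason. The number of the 9 genes called depended on the q-value limit. With DAC in siLuc it was 1, and 2 at a limit of 0.1 or when adjusted within the comparison, BRCA2 being the second. With DAC in siStau1 it was 1, with 0 at a limit of 0.01 and 2 at 0.1. In siLuc DAC over siStau1 DMSO it was 4, with 2 at 0.01 and 5 at 0.1 or when adjusted within the comparison, the fifth being FANCA in the higher direction. In the 3 comparisons with 0 called it was 0 at each limit. The share of all genes called at these other limits was not taken, so these counts have no background beside them. Pseudocounts of 1 and 0.01, scaling to protein-coding FPKM and centring on the median of all genes moved no ratio of the 9 genes by over 1.5 times. Centring within GC bins changed the sign of 2 genes each for DAC in siStau1 and for siStau1 over siLuc with DAC, of 1 for siStau1 over siLuc with DMSO, and of 2 in siLuc DAC over siStau1 DMSO. It moved the median of the 9 genes there from −1.15 to −0.50, and that of the companion genes for siStau1 over siLuc with DAC from 0.17 to −0.028. The causes were not tested.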

Other observations

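A few other pathway genes are given here as values; they were picked after the values had been seen, and none was called with DAC in either arm. The MRN complex senses and trims broken ends. With DAC in siLuc RAD50 went from 22.8 to 6.62 FPKM, NBN from 30.4 to 13.2 and MRE11 from 7.71 to 6.04, with q-values of 0.152, 0.0784 and 0.832 in the authors' deposited table. Relative to genes of like GC the log2 ratios were −1.18 for RAD50 and −0.46 for NBN, and MRE11 changed sign, from −0.35 to 0.28. BARD1, the obligate partner of BRCA1, had 30.7 and 10.5 FPKM in siLuc and 24.7 and 13.5 in siStau1, and BRCA1 over BARD1 was 0.580 and 0.871 in siLuc and 0.997 and 0.871 in siStau1.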
